A study of Mus musculus with 24 samples.

Results

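The medial prefrontal cortex (mPFC) of the mouse was compared between postnatal day 14 (P14) and postnatal day 56 (P56). The comparison holds the 5 P14 and the 5 P56 mPFC libraries, chosen by their labels, out of 24 libraries in the series, and no P7 library entered it. All mice were C57BL/6, and each library came from 1 mouse, so the ages are unpaired. Of the P14 mice 4 were male and 1 was female (P14 mPFC 4), and of the P56 mice 3 were female and 2 were male. Each sample was a 2 mm punch of tissue, so its RNA is a mixture of all cell types in the punch. Striatum punches of the same mice served for a test of whether a change differs between regions.

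The mPFC carries executive and social functions and matures late. At P14 its neurons have mostly reached their layers, but axons are still extending, synapses form in excess, oligodendrocyte precursors are dividing and differentiating, and the pup lives on milk rich in fat. By P56 the mouse is a young adult: axons are myelinated, inhibitory interneurons that contain parvalbumin fire fast trains of spikes and are wrapped in a perineuronal net of matrix, and the brain burns glucose. Genes of growth cones, lipid synthesis, ion channels and matrix are therefore the classes that a comparison of these ages measures.

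Between 81878718 and 116702588 reads fell on genes in each library. Of 18742 genes tested, 8102 differed between the ages at an adjusted p under 0.05 (43.2%), with 4162 higher at P56 (22.2%) and 3940 lower (21.0%). A 2-fold change was met by 1544 genes (8.24%), 860 higher and 684 lower, and the ranges of the 5 P14 and 5 P56 libraries did not overlap for 5589 genes (29.8%). The median log2 fold change over all genes was 0.04. These percentages are the background against which each count is to be read. A log2 fold change below 0 means lower at P56 throughout, and levels are in CPM, reads scaled to a common library size by TMM. They are not divided by length, so they are compared between libraries and not between genes. In a bulk sample, fewer cells of a type and less RNA per cell cannot be told apart.

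The tissue label was checked with marker genes. The 22 cortical excitatory neuron markers had a mean level, as log2(CPM + 0.5) on a scale common to both regions, of 6.15 to 6.36 at P14 and 6.31 to 6.35 at P56 in mPFC, against 3.87 to 5.78 in the striatum libraries. The medium spiny neuron markers lay between 3.05 and 3.29 in 9 of the 10 mPFC libraries, at 4.33 in P56 mPFC 3, and at 6.15 or above in striatum. The ependyma and choroid plexus markers had a mean of −0.289 to 0.422 in mPFC on this scale, where a gene with no read stands at −1. P-values here weigh a difference against the spread between the mice sampled. P14 mPFC 4 and P56 mPFC 3, here called the outlying pair, stand apart from the rest. The deviation from the mean of the same age had an SD over genes of 0.264 in P14 mPFC 4 and 0.241 in P56 mPFC 3, against 0.130 to 0.181 in the other 8. Without both, 9197 genes were called. The P14 mice left in that fit were all male and most of the P56 mice female, so age is largely confounded with sex in it. With all 10 libraries and sex as a term, 7299 genes were called. The counts of gene lists are repeated without the outlying pair where they change.

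Gene length moved with age. Per library, the median level of the longest class of protein-coding genes (of 5 equal classes by summed exon length) minus that of the shortest was −0.197, −0.153, −0.146, 0.0366 and −0.131 on the log2 scale in P14 mPFC 1 to 5, and −0.0357, 0.00433, 0.232, 0.177 and 0.209 in P56 mPFC 1 to 5. P14 mPFC 4 lay with the P56 libraries. The median log2 fold change went from −0.12 in the shortest class (312 to 2459 bases of exon) to 0.12 in the longest (7350 to 41324 bases), and the share called higher from 13.9% to 34.1%. The part of this in the gene results was not tested. A fit with the length trend of each library taken out called 8384 genes, 7316 of them also called without that step.

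**Figure D1:**
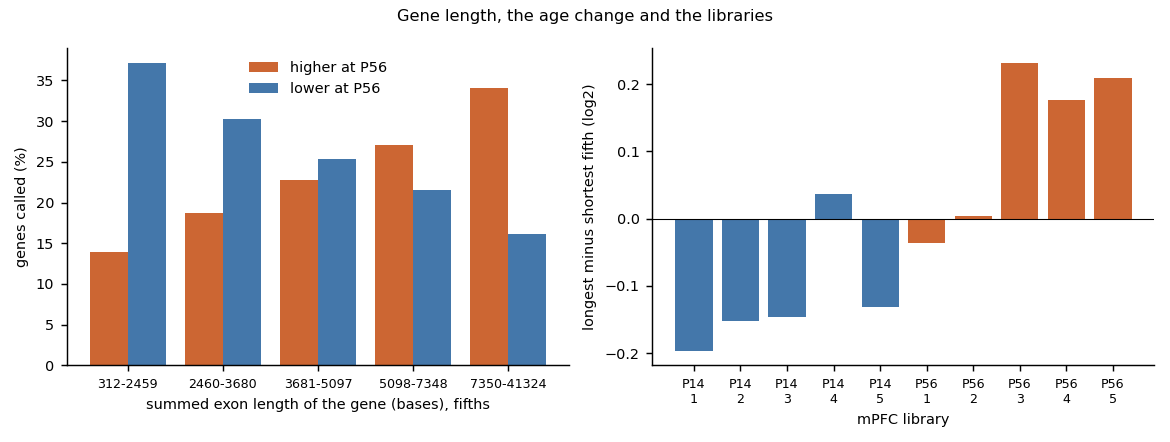
Left, the percentage of protein-coding genes called higher (orange) or lower (blue) at P56 in each of 5 equal classes of summed exon length in bases. Right, one bar per mPFC library with the median log2 level of the longest class minus that of the shortest, each relative to the 10-library mean. Higher calls go from 13.9% in the shortest class to 34.1% in the longest, and P14 mPFC 4 is the P14 library with a value above 0.

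The largest decreases by rule (the 10 protein-coding genes with at least 100 reads on average and ranges that do not overlap) were those of *Trpa1*, *Aplnr*, *Mkrn3*, *Cd24a*, *BC024139*, *Casr*, *Pcdh12*, *Adamts12*, *Col3a1* and *Marcksl1*, with log2 fold changes from −4.91 to −2.73. *Cd24a* (chromosome 10, 43579169 to 43584262, plus strand, GRCm38) encodes a surface glycoprotein of young neurons and progenitors. It stood at 96.3, 79.9, 91.5, 90.8 and 99.1 CPM in P14 mPFC 1 to 5 and at 6.73, 6.06, 8.74, 6.68 and 8 CPM in P56 mPFC 1 to 5. Every P14 library lay far above every P56 library, and the gene fell by 3.66 (SE 0.11, adjusted p = 3.7e-09) on the log2 scale. *Marcksl1*, an actin-binding protein of growth cones, was at 370, 385, 448, 397 and 389 CPM at P14 and at 63.0, 57.6, 54.3, 58.4 and 66.2 CPM at P56. The lowest P14 library lay more than 5 times above the highest P56 library, and the log2 fold change was −2.73 (SE 0.07, adjusted p = 2.31e-09).

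*Trpa1* encodes a cation channel best known for sensing irritants in sensory neurons (chromosome 1, 14872648 to 14918862, minus strand). It was at 6.23, 5.10, 3.88, 6.25 and 5.45 CPM at P14 and at 0.222, 0.124, 0.0718, 0.222 and 0.261 CPM at P56, so it went from low to nearly undetected. Its log2 fold change was −4.91 (SE 0.28, adjusted p = 4.23e-07). *Aplnr*, the apelin receptor of growing vessels, fell by 4.21 (SE 0.17, adjusted p = 3.15e-08). *Pcdh12*, a protocadherin of endothelial cells, fell by 3.48, and *Col3a1*, the fibrillar collagen of vessel walls and meninges, by 2.76. *Col3a1* also varied within P14, at 28.7, 52.9, 67.5, 13.1 and 13.5 CPM. *Mkrn3*, an imprinted gene whose loss brings puberty early, fell by 3.77, from 15 to 18.3 CPM at P14 to 1.07 to 1.65 CPM at P56.

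The largest increases by the same rule were those of *Serpinb1a*, *Igfn1*, *Plk5*, *Hsf4*, *Mei1*, *Fmo2*, *Chdh*, *Plin4*, *Etnppl* and *Hapln2*, with log2 fold changes from 3.90 to 2.73. *Serpinb1a*, an inhibitor of neutrophil proteases, was at 0.339, 0.588, 0.549, 0.162 and 0.163 CPM at P14 and at 4.48, 4.97, 9.88, 3.58 and 4.32 CPM at P56. P56 mPFC 3 was the highest library, and the log2 fold change of 3.90 (SE 0.41, adjusted p = 2.66e-05) was 3.37 without it and P14 mPFC 4. *Hsf4*, a heat shock transcription factor, was even within each age, at 0.558 to 0.847 CPM at P14 and 7.21 to 8.53 CPM at P56 (log2 fold change 3.57, SE 0.13, adjusted p = 2.32e-08). *Etnppl*, an astrocyte enzyme that breaks down phosphoethanolamine, rose from 1.55, 3.37, 1.63, 2.89 and 2.27 CPM to 15.3, 20, 15.7, 19.6 and 19.8 CPM (log2 fold change 2.95, SE 0.21, adjusted p = 1.74e-06). *Plin4*, which coats lipid droplets and responds to glucocorticoids, rose by 3.19 from 0.0219 to 0.418 CPM at P14 to 0.784 to 3.48 CPM at P56.

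Growing neurons depend on tubulins, collapsin response mediators and other proteins of the growth cone. Of 30 tested genes of immature neurons and axon growth, 24 were lower at P56, none was higher and 6 were not called, with a median log2 fold change of −1.06 against 0.04 over all genes. Leaving out P14 mPFC 4 and P56 mPFC 3 gave 26 lower and none higher. *Tubb2b*, a beta tubulin of migrating and growing neurons, was at 230, 199, 238, 223 and 278 CPM at P14 and at 58.7, 58.7, 58.6, 52.8 and 55.3 CPM at P56. The P56 libraries lay close together, and the gene fell by 2.04 (SE 0.08, adjusted p = 3.45e-08). *Tuba1a*, the alpha tubulin of the same cells, had 1840 to 2198 CPM at P14 and 555 to 801 CPM at P56, and fell by 1.56.

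*Gap43*, the growth-associated protein of axon terminals, was at 538, 484, 586, 508 and 716 CPM at P14 and at 274, 247, 157, 232 and 274 CPM at P56 (log2 fold change −1.26, SE 0.15, adjusted p = 7.26e-05). It kept a sizeable level at P56 in every library. *Dpysl3* (log2 fold change −2.24) and *Dpysl5* (−2.28), collapsin response mediators, fell together with *Stmn2* (−1.21), a regulator of microtubule ends. *Dpysl5* was highest at P14 in P14 mPFC 4, with 96.0 CPM against 30.6 to 64.2 CPM in the other 4. *Dcx*, the doublecortin of migrating neurons, was at 44.4, 37.5, 45.0, 72.5 and 45.1 CPM at P14 and at 19.8, 20.3, 40.2, 30.7 and 43.0 CPM at P56. Its ranges overlapped, its adjusted p was 0.043, and without P14 mPFC 4 and P56 mPFC 3 it was 0.0501. The call of *Dcx* was lost in 7 of 10 fits that left out 1 library (adjusted p up to 0.0908).

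Guidance ligands and receptors steer axons and remain in use at adult synapses. Of 54 tested, 15 were lower, 5 were higher and 34 were not called, with a median log2 fold change of −0.16. The shares over all genes tested were 21.0% lower and 22.2% higher. Without the outlying pair 19 were lower and 8 higher, and with the length trend taken out 22 were lower and 6 higher. *Sema6a*, a transmembrane semaphorin, fell by 0.91 (SE 0.16, adjusted p = 0.000758) and *Ephb2*, a receptor tyrosine kinase for ephrins, by 0.83 (SE 0.12, adjusted p = 0.000201). *Ntng2*, a netrin-G anchored in axon membranes, went the other way, from 6.06 to 10.5 CPM at P14 to 11.9 to 16.8 CPM at P56, a rise of 0.92 (SE 0.15, adjusted p = 0.000526). *Unc5a*, a netrin receptor, rose by 0.83 with overlapping ranges.

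Of 32 genes of cell division, 18 were lower, 3 were higher and 11 were not called, and the median log2 fold change was −0.67. *Cdk1*, the kinase that starts mitosis, was at 2.59, 2.53, 1.71, 1.54 and 2.01 CPM at P14 and at 0.398, 0.296, 0.913, 0.209 and 0.333 CPM at P56 (log2 fold change −2.26, SE 0.35, adjusted p = 0.00036). *Mki67*, a marker of cycling cells, was at 11.3, 11.8, 8.22, 7.04 and 10.4 CPM at P14 and at 2.02, 2.28, 8.96, 2.40 and 3.02 CPM at P56. P56 mPFC 3 therefore lay within the P14 range, and *Top2a*, the topoisomerase of mitosis, showed the same library apart at 9.18 CPM against 1.49 to 2.34 CPM. The fall of *Mki67* was 1.38 (adjusted p = 0.0127) with all libraries and 2.12 (adjusted p = 9.63e-06) without P14 mPFC 4 and P56 mPFC 3, when 22 genes of the list were lower, 2 were higher and the median was −0.99. *Ccnd1*, a cyclin of the first growth phase, rose by 0.49 (SE 0.11, adjusted p = 0.00444).

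Oligodendrocytes pass from dividing precursors through a short newly formed stage to mature cells that make myelin. Of 22 precursor genes 16 were lower and 1 was higher (median log2 fold change −0.62), and of 21 genes of newly formed oligodendrocytes 18 were lower and none was higher (median −0.87). Of 40 genes of mature oligodendrocytes and myelin 16 were higher, 2 were lower and 22 were not called (median 0.70). Without P14 mPFC 4 and P56 mPFC 3 the mature list held 13 higher and 9 lower genes with a median of 0.19, while the precursor and the newly formed list each held 18 lower genes and none higher. The mean level of the mature list was 6.30 in P56 mPFC 3 and 4.93 to 5.43 in the other P56 libraries, against 4.28 to 5.40 at P14.

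*Pdgfra*, the growth factor receptor that defines precursors, was at 122, 122, 118, 104 and 116 CPM at P14 and at 75.1, 65.2, 73.3, 75.8 and 72.3 CPM at P56. It fell by 0.68 (SE 0.06, adjusted p = 7.91e-06), and P56 mPFC 3 was not apart from its group. *Gpr17*, a receptor of cells about to differentiate, was at 191, 212, 164, 155 and 207 CPM at P14 and at 64.4, 69.7, 57.6, 55.7 and 45.0 CPM at P56. The ranges were far apart (log2 fold change −1.66, SE 0.12, adjusted p = 2.35e-06). *Bmp4* (−1.29), *Neu4* (−0.87) and *Enpp6* (−1.5), other genes of the newly formed stage, fell too, and *Enpp6* overlapped because P56 mPFC 3 held 16.2 CPM against 5.22 to 7.30 CPM in the other P56 libraries.

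The myelin list split into genes that rose and genes that did not. *Il33*, an alarmin stored in nuclei of mature oligodendrocytes, was at 9.29, 7.68, 7.18, 9.63 and 6.04 CPM at P14 and at 25.4, 27.8, 46.9, 22.7 and 26.4 CPM at P56 (log2 fold change 1.90, SE 0.20, adjusted p = 2.63e-05). *Klk6*, a secreted protease, was below 0.30 CPM in every P14 library and at 0.727 to 3.85 CPM at P56 (log2 fold change 3.35, SE 0.60, adjusted p = 0.000991). *Aspa*, which splits N-acetylaspartate for lipid synthesis, *Apod*, a lipid carrier, *Trf*, the iron carrier transferrin, and *Hapln2*, a matrix link protein of nodes of Ranvier, rose by 1.55, 1.51, 1.36 and 2.73. Each of these was highest in P56 mPFC 3, and each was still called without it and P14 mPFC 4, with 1.13, 1.18, 0.89 and 2.03. *Ermn*, a cytoskeletal protein of late myelin, rose by 1.18 (adjusted p = 0.0133), which became 0.80 (adjusted p = 0.0547).

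*Mbp*, which encodes myelin basic protein, and *Mog*, a protein of the outer myelin surface, were not called. *Mbp* was at 1385, 1973, 643, 1110 and 1646 CPM at P14 and at 1054, 1311, 2481, 889 and 897 CPM at P56 (log2 fold change −0.03, SE 0.33, adjusted p = 0.956). The spread within each age exceeded 2-fold, and P14 mPFC 3 and P56 mPFC 3 were the extremes. For *Mog* the log2 fold change was 0.01 (SE 0.38, adjusted p = 0.982). *Ugt8a*, which makes the myelin lipid galactosylceramide, fell by 0.97 (adjusted p = 0.0278), and by 1.38 (adjusted p = 0.00278) without P14 mPFC 4 and P56 mPFC 3. Its call was lost in 7 of 10 fits that left out 1 library (adjusted p up to 0.0644).

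**Figure D2:**
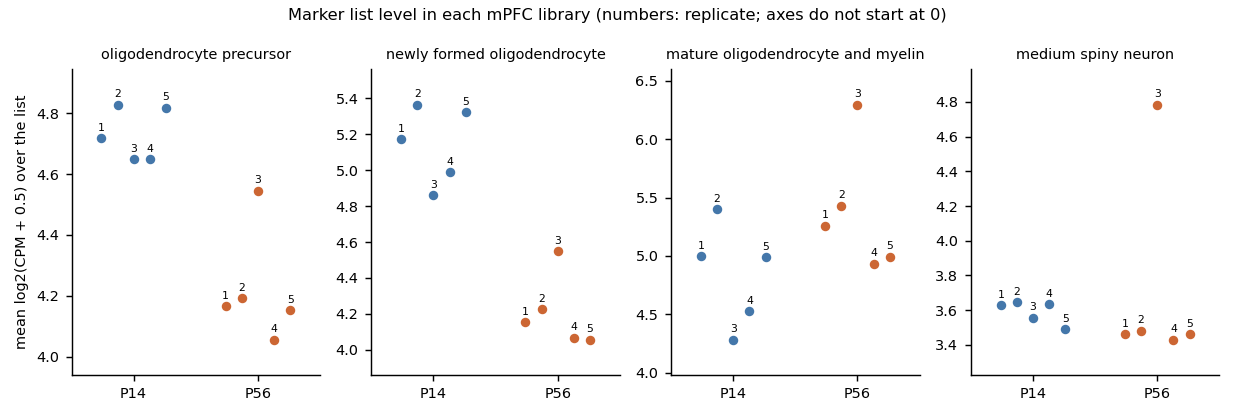
Mean log2(CPM + 0.5) over 4 marker lists (3 oligodendrocyte stages and medium spiny neurons) in each mPFC library, with P14 in blue, P56 in orange and the replicate number above each point. Precursor and newly formed oligodendrocyte levels lie lower in all P56 libraries than in all P14 libraries, the mature list overlaps, and P56 mPFC 3 is the highest P56 library in all 4 panels.

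Cholesterol in the brain is made locally, since lipoproteins do not cross into it, and demand is highest while membranes and myelin grow. Of 25 tested genes of cholesterol synthesis 20 were lower at P56, 1 was higher and 4 were not called (median log2 fold change −0.47). Leaving out P14 mPFC 4 and P56 mPFC 3 gave 22 lower and 1 higher. *Hmgcs1*, which makes the precursor of mevalonate, was at 971, 885, 848, 836 and 961 CPM at P14 and at 545, 483, 419, 449 and 477 CPM at P56. The lowest P14 library lay well above the highest P56 library, and the gene fell by 0.92 (SE 0.08, adjusted p = 5.68e-06). *Sqle* (−0.90), *Mvd* (−0.90), *Tm7sf2* (−0.97) and *Dhcr7* (−0.81), other enzymes of the pathway, fell by similar amounts, each with ranges that did not overlap.

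*Srebf2*, the transcription factor that drives these enzymes when sterol is scarce, was the list's 1 higher gene, by 0.28 (SE 0.10, adjusted p = 0.0417) with overlapping ranges. That call was lost in 8 of 10 fits that left out 1 library (adjusted p up to 0.0942). The factor binds the sterol regulatory element, searched here as TCACCCCAC on both strands in the 250 bases before the start in RefSeq (GRCm38.p6). It was found in 1 of the 17 promoters of the list that the table holds, that of *Hmgcs1*, and in 126 of all 27025 promoters (0.466%). The stretch is shown because it belongs to a gene that fell at P56. It lies at chr13:119690179-119690258 on the plus strand, and the match, 137 bases before the start, is in capitals.
*Hmgcs1* promoter: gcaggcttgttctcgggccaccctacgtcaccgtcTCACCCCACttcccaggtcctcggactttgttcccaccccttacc

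Suckling pups burn ketone bodies made from milk fat, and the brain takes them up through monocarboxylate carriers. Of 17 genes of ketone body and fatty acid use 9 were lower and 1 was higher (median log2 fold change −0.29). Without the outlying pair 11 were lower and none was higher, and none was called higher when any single library was left out. *Slc16a1*, the carrier of ketone bodies and lactate at the vessel wall, was at 157, 165, 164, 115 and 156 CPM at P14 and at 44.7, 47.6, 51.4, 38.6 and 37.6 CPM at P56. P14 mPFC 4 was the lowest P14 library but still above every P56 library (log2 fold change −1.78, SE 0.12, adjusted p = 9.24e-07). *Bdh1*, which oxidises hydroxybutyrate in mitochondria, was nearly constant within each age, at 136 to 147 CPM and 40.2 to 47.4 CPM (log2 fold change −1.66, SE 0.06, adjusted p = 1.06e-08). *Oxct1*, the next enzyme of ketone use, fell by 1.17 and *Acat1*, the last, by 0.80.

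Of 20 glycolysis genes 5 were higher and 4 lower (6 and 4 without the outlying pair), with a median log2 fold change of 0.02. These counts are near the shares over all genes tested (22.2% higher, 21.0% lower). *Pkm*, the pyruvate kinase, rose by 0.49 (SE 0.08, adjusted p = 0.000414) from 901 to 968 CPM to 1113 to 1451 CPM, and *Pfkl*, a phosphofructokinase, by 0.53. *Ldha*, a lactate dehydrogenase subunit, fell by 0.63 (SE 0.09, adjusted p = 0.00024), and *Slc2a3*, the neuronal glucose transporter, by 0.55.

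Vessels still sprout in the cortex at P14. Of 24 endothelial genes 13 were lower and 3 were higher (median log2 fold change −0.51; 14 lower and 3 higher without the outlying pair), and of 16 mural cell genes 6 were lower and none was higher (median −0.35). *Kdr*, the main receptor for vascular endothelial growth factor, was at 45.9, 53.1, 49.8, 39.0 and 42.5 CPM at P14 and at 13.2, 13.7, 15.8, 12.3 and 8.33 CPM at P56. The lowest P14 library lay more than 2-fold above the highest P56 library, and the gene fell by 1.86 (SE 0.15, adjusted p = 4.37e-06). *Esm1* and *Angpt2*, genes of sprouting tip cells, fell by 1.95 and 1.83, although *Esm1* was at 0.608 CPM or less in every library.

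Genes of the blood-brain barrier did not move alike. *Mfsd2a*, the carrier of omega-3 lipid that keeps vesicle transport low, fell by 1.24 (SE 0.12), *Slc38a5*, an amino acid carrier, by 1.61 (SE 0.14), and *Cldn5*, the main claudin of tight junctions, by 0.99 (SE 0.22), with adjusted p from 6.97e-06 to 0.00335. *Slco1a4*, an organic anion carrier, rose by 0.61 (SE 0.13, adjusted p = 0.00343), and *Ly6a*, a surface protein of adult brain endothelium, rose by 1.31 (SE 0.19, adjusted p = 0.000237) from 3.05 to 5.30 CPM to 6.51 to 12.8 CPM. Of the pericyte genes *Rgs5*, a regulator of G-protein signals, fell by 1.00, and *Kcnj8*, a potassium channel subunit, by 0.74. Without P14 mPFC 4 and P56 mPFC 3 the mural list held 10 lower genes. Of 9 red blood cell genes 7 were lower and none was higher (median −0.93). Of 24 genes of meningeal and perivascular fibroblasts 5 were lower and none was higher (6 lower without the outlying pair). The shares over all genes tested were 21.0% lower and 22.2% higher. The mean level of the fibroblast list ran from 2.08 to 4.35 at P14 and from 2.46 to 3.85 at P56. The summed level of the red blood cell list was 678 to 849 CPM at P14 and 294 to 484 CPM at P56, and its part in the vessel results was not tested.

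**Figure D3:**
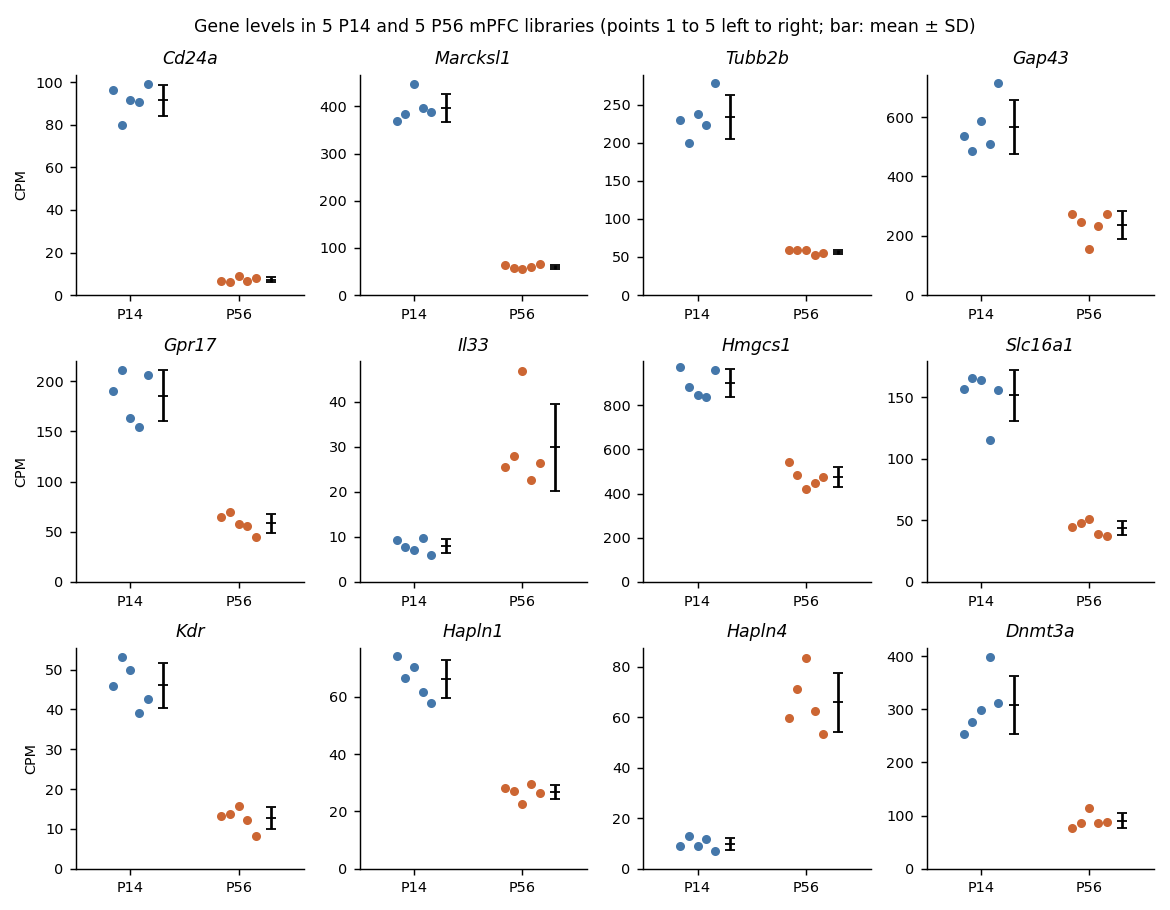
CPM of 12 genes in each of the 5 P14 (blue) and 5 P56 (orange) mPFC libraries, in order of replicate from left to right, with the mean and SD as a black bar; all axes start at 0. The ages do not overlap for any of the 12, and *Il33* and *Hapln4* are the genes of these 12 that are higher at P56.

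Many ion channels of mature neurons were higher at P56. Of 36 voltage-gated potassium channel genes 20 were higher, 1 was lower and 15 were not called (22.2% of all genes tested were higher), with a median log2 fold change of 0.29. With the length trend taken out 19 were higher and 1 was lower, and without the outlying pair 19 were higher and 2 lower. *Kcnc1*, the Kv3 subunit that lets interneurons repolarise fast, was at 25.6, 30.9, 27.8, 59.7 and 29.1 CPM at P14 and at 53.9, 64.2, 94.4, 81.1 and 77.2 CPM at P56. P14 mPFC 4 alone overlapped the P56 range, and the rise was 1.10 (SE 0.23, adjusted p = 0.0027).

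*Kcnh4*, an ether-a-go-go channel of the forebrain, rose by 1.68 (SE 0.32, adjusted p = 0.00141), and *Kcnab3*, an auxiliary beta subunit, by 0.98. The axonal subunits *Kcna1* and *Kcna2* rose by 0.67 (SE 0.12) and 0.74 (SE 0.13), each with ranges that did not overlap. *Kcnip1*, a calcium sensor bound to Kv4 channels, was the list's 1 lower gene, at 29.8 to 32.6 CPM at P14 and 16.4 to 20.3 CPM at P56 (log2 fold change −0.73, SE 0.06, adjusted p = 8.17e-06).

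Of 28 sodium and calcium channel genes 8 were higher and 2 were lower (median log2 fold change 0.20). The shares over all genes tested were 22.2% higher and 21.0% lower. In this list 16 were higher and 2 lower without P14 mPFC 4 and P56 mPFC 3, and 7 and 3 with the length trend taken out. *Scn4b*, a beta subunit that allows resurgent sodium current, was at 15.1, 19.3, 11, 18.7 and 11.2 CPM at P14 and at 64.3, 81.5, 150, 50.3 and 40.2 CPM at P56. The log2 fold change was 2.36 (SE 0.33, adjusted p = 0.000214) and 2.04 without P56 mPFC 3 and P14 mPFC 4. P56 mPFC 3 is also the library with more medium spiny neuron markers, cells that express *Scn4b* strongly, and the part of that in this value was not tested. *Scn8a*, the channel of the axon initial segment, rose by 0.67 (SE 0.18), and *Scn1a*, the channel of fast-spiking interneurons, by 0.48 (SE 0.12). *Cacna1c*, an L-type calcium channel, was not called (log2 fold change 0.37, adjusted p = 0.153), with P14 mPFC 4 at 113 CPM against 53.0 to 67.8 CPM in the other P14 libraries. It was called without P14 mPFC 4 and P56 mPFC 3 (0.55, adjusted p = 0.00801) and without P14 mPFC 4 alone (0.59, adjusted p = 0.00382). With the length trend taken out the log2 fold change was 0.14 (adjusted p = 0.431).

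Inhibition by GABA changes its receptor subunits and chloride gradient as the cortex matures. Of 21 such genes 5 were higher and 5 were lower (median log2 fold change 0.03), and 7 were higher and 5 lower without the outlying pair. The counts with all libraries are near the shares over all genes tested (22.2% higher, 21.0% lower). *Gabra5*, an early alpha subunit, was at 130, 122, 119, 130 and 151 CPM at P14 and at 90.7, 85.2, 62.7, 79.2 and 87.2 CPM at P56, a fall of 0.69 (SE 0.10, adjusted p = 0.000237). *Glra2*, a glycine receptor subunit of young neurons, fell by 1.24 (SE 0.24, adjusted p = 0.00151), and P14 mPFC 5 was its highest library with 111 CPM. *Slc12a5*, the transporter that extrudes chloride, rose by 0.63 (SE 0.17, adjusted p = 0.00944), while *Slc12a2*, which imports it, had a log2 fold change of 0.13 (adjusted p = 0.582).

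Of 31 ionotropic glutamate receptor genes, auxiliary subunits included, 4 were higher and 6 were lower (median log2 fold change 0.08). The shares over all genes tested were 22.2% higher and 21.0% lower. In this list 10 were higher and 6 lower without P14 mPFC 4 and P56 mPFC 3, and 3 and 8 with the length trend taken out. *Grin3a*, an NMDA receptor subunit of juvenile synapses, was at 83.5, 77.1, 95.3, 124 and 88.6 CPM at P14 and at 52.6, 48.1, 42.1, 61.2 and 67.5 CPM at P56 (log2 fold change −0.79, SE 0.15, adjusted p = 0.00125). *Neto2*, an auxiliary kainate receptor subunit, fell by 0.81 (SE 0.07, adjusted p = 5.39e-06), *Cacng4*, an AMPA receptor auxiliary subunit, by 0.83 and *Grik1*, a kainate receptor subunit, by 0.60. *Grin2a*, the NMDA subunit of mature synapses, rose by 0.45 (SE 0.14, adjusted p = 0.023), a call lost when the length trend was taken out (0.24, adjusted p = 0.0542) and in 4 of 10 fits that left out 1 library (adjusted p up to 0.0572). *Grin2b*, the subunit of early synapses, was not called (log2 fold change 0.29, adjusted p = 0.438). Its P14 libraries held 497, 526, 626, 1401 and 636 CPM, so P14 mPFC 4 alone exceeded every P56 library (629 to 1159 CPM). *Grin2b* was called higher without P14 mPFC 4 (0.64, adjusted p = 0.0177) and without the outlying pair (0.62, adjusted p = 0.0314), and its log2 fold change was 0.04 with the length trend taken out. *Gria3*, an AMPA receptor subunit, rose by 0.31.

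**Figure D4:**
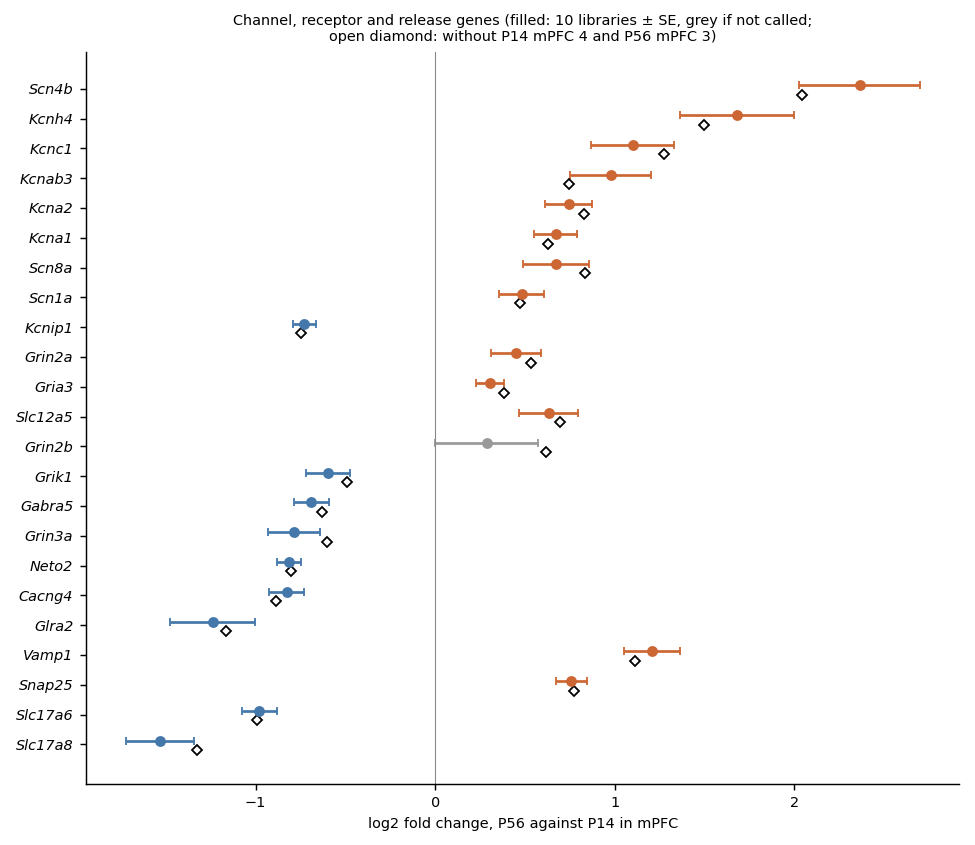
Log2 fold change from P14 to P56 of 23 channel, receptor and release genes, with the SE from the fit over 10 libraries; open diamonds give the value without P14 mPFC 4 and P56 mPFC 3. *Scn4b* is the highest at 2.36, *Slc17a8* the lowest at −1.53, and *Grin2b* (grey, 0.29) is the gene of these 23 that was not called.

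Modulatory inputs to the mPFC act through monoamine and acetylcholine receptors, of which 12 of 37 were higher and 5 were lower (median log2 fold change 0.16). Without the outlying pair 12 were higher and 7 lower. *Chrna3*, a nicotinic subunit, was at 2.20, 1.86, 1.86, 1.90 and 1.41 CPM at P14 and at 0.120 to 0.359 CPM at P56 (log2 fold change −3.09, SE 0.31, adjusted p = 1.96e-05). *Chrna5*, the nicotinic subunit of deep cortical layers, went the other way, at 2.37 to 4.38 CPM and 4.75 to 7.28 CPM (log2 fold change 0.95, SE 0.18, adjusted p = 0.00134). *Adra2c*, an alpha-2 adrenergic receptor, rose by 1.02 and *Hrh3*, a histamine autoreceptor, by 0.93, both with ranges that did not overlap. *Htr5b*, a serotonin receptor, fell by 1.00.

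Of 34 genes of synaptic vesicles and release 3 were higher and 11 were lower (median log2 fold change 0.04). The shares over all genes tested were 22.2% higher and 21.0% lower. With P14 mPFC 4 and P56 mPFC 3 left out, 10 genes of the list were higher and 10 were lower. *Snap25*, the SNARE protein of the nerve terminal, was at 1558, 1606, 1287, 1572 and 1655 CPM at P14 and at 2885, 2806, 2415, 2431 and 2445 CPM at P56 (log2 fold change 0.76, SE 0.09, adjusted p = 4.89e-05). *Vamp1*, the synaptobrevin of fast-spiking cells, rose by 1.21 (SE 0.16, adjusted p = 0.000111). Of the vesicular glutamate transporters, *Slc17a8* fell by 1.53 (SE 0.19, adjusted p = 8.57e-05) and *Slc17a6* by 0.98 (SE 0.10, adjusted p = 1.9e-05). *Slc17a7*, the main one of cortical neurons, fell by 0.23 (SE 0.07, adjusted p = 0.0171) with overlapping ranges.

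For the scaffolds of the active zone and a vesicle phosphoprotein the call depended on P14 mPFC 4. *Bsn*, which encodes bassoon, was at 68.2, 90.2, 102, 476 and 158 CPM at P14 and at 210, 255, 386, 611 and 525 CPM at P56. P14 mPFC 4 lay within the P56 range, and the log2 fold change of 1.15 was not called (adjusted p = 0.0871). *Pclo*, which encodes piccolo (0.87, adjusted p = 0.0661), and *Syn1*, which encodes synapsin I (0.70, adjusted p = 0.201), had the same pattern. Without P14 mPFC 4 alone the 3 genes had log2 fold changes of 1.91, 1.32 and 1.32 with adjusted p of 0.00111, 0.00159 and 0.00213. *Pclo* was also called without P56 mPFC 1 (1.00, adjusted p = 0.0482), and with the length trend taken out none of the 3 was called (adjusted p = 0.0971, 0.0835 and 0.187).

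Of 24 neuropeptide genes tested, 12 were lower, 2 were higher and 10 were not called (median log2 fold change −0.24). Without the outlying pair 12 were lower and 3 higher, and with the length trend taken out 12 were lower and 5 higher. *Cartpt*, a peptide of cortical and feeding circuits, was at 9.26, 8.53, 8.28, 10.3 and 10 CPM at P14 and at 1.98, 2.27, 1.82, 1.86 and 2.34 CPM at P56 (log2 fold change −2.17, SE 0.11, adjusted p = 1.28e-07). *Trh*, thyrotropin-releasing hormone, fell by 2.23 and *Cort*, the somatostatin relative cortistatin, by 0.96. *Nts*, neurotensin, fell by 2.36 (SE 0.59, adjusted p = 0.00769) with overlapping ranges. *Penk*, an enkephalin precursor abundant in medium spiny neurons, rose by 1.03 (adjusted p = 0.0244). P56 mPFC 3 held 75.0 CPM against 22.0 to 25.9 CPM in the other P56 libraries, and the value without it and P14 mPFC 4 was 0.51 (adjusted p = 0.00566). The call was lost without P14 mPFC 2 (adjusted p = 0.0519) and without P14 mPFC 5 (adjusted p = 0.0575).

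The 21 medium spiny neuron genes held 5 higher and 3 lower, and 5 higher and 7 lower without P14 mPFC 4 and P56 mPFC 3. This count and those of the next 2 lists stand beside 22.2% higher and 21.0% lower among all genes tested. Interneuron genes went both ways. Of 21 interneuron genes 4 were higher and 9 were lower (median log2 fold change −0.03), and 7 were higher and 9 lower with the length trend taken out. *Pvalb*, the calcium buffer of fast-spiking cells, was at 16.6, 19.0, 9.46, 15.1 and 8.46 CPM at P14 and at 38.8, 41.6, 43.9, 27.6 and 24.9 CPM at P56. The ranges did not overlap (log2 fold change 1.37, SE 0.24, adjusted p = 0.000841). *Gad1*, which makes GABA, rose by 0.58 (SE 0.07, adjusted p = 7.98e-05). *Calb2*, which encodes calretinin, fell by 1.02 (SE 0.16, adjusted p = 0.000334), and *Chodl*, of long-range interneurons, by 1.30 (SE 0.15, adjusted p = 6.05e-05). *Sst*, somatostatin, was not called (log2 fold change 0.12, SE 0.06, adjusted p = 0.158), but was called higher with the length trend taken out (0.28, adjusted p = 0.019). Of 22 cortical excitatory neuron genes 6 were higher and 2 were lower (6 and 3 without the outlying pair), against the 22.2% and 21.0% given above. *Camk2a*, the kinase of excitatory synapses, rose by 0.76 (SE 0.12, adjusted p = 0.00039) from 454 to 735 CPM to 972 to 1188 CPM, and *Nptx1*, a secreted pentraxin, by 0.95 (SE 0.13).

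The perineuronal net is a lattice of hyaluronan, lecticans, link proteins and tenascins. Of 28 matrix genes 17 were lower and 4 were higher (median log2 fold change −0.50), and 18 were lower and 3 higher without the outlying pair. Link proteins switched. *Hapln1*, the early link protein, was at 74.4, 66.6, 70.5, 61.9 and 57.8 CPM at P14 and at 28.0, 27.0, 22.7, 29.5 and 26.6 CPM at P56, a fall of 1.31 (SE 0.09, adjusted p = 1.02e-06). *Hapln4*, the link protein of mature nets, was at 8.91, 12.8, 9.04, 11.9 and 7.13 CPM at P14 and at 59.5, 71.0, 83.5, 62.5 and 53.3 CPM at P56, a rise of 2.73 (SE 0.17, adjusted p = 7.59e-07). The P14 and P56 ranges of both genes were wide apart. *Tnc*, the tenascin of developing tissue, fell by 2.39 (SE 0.27, adjusted p = 4.51e-05), *Has3*, a hyaluronan synthase, by 1.44, *Ncan*, neurocan, by 0.76 and *Vcan*, versican, by 0.73. *Acan*, aggrecan, was not called (log2 fold change −0.18, SE 0.18, adjusted p = 0.452).

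Early genes are switched on within minutes by neuronal activity, so their level also depends on what the mouse did before death. Of 28 such genes 11 were higher, 1 was lower and 16 were not called (median log2 fold change 0.45), and 14 were higher and 1 lower without the outlying pair. *Arc*, a protein of active dendrites, was at 103, 124, 82.1, 173 and 93.6 CPM at P14 and at 161, 520, 310, 294 and 210 CPM at P56. The P56 libraries spanned more than 3-fold, P14 mPFC 4 lay inside their range, and the rise was 1.38 (SE 0.29, adjusted p = 0.00294). The transcription factors *Fosb* (1.55), *Npas4* (1.34) and *Egr3* (1.27) rose, each with overlapping ranges, and *Fos* was not called (0.31, adjusted p = 0.239). Of 15 glucocorticoid-induced genes 6 were higher and 1 was lower (5 and 2 without the outlying pair). *Zbtb16*, a transcription factor, rose by 1.05 (SE 0.23, adjusted p = 0.00375), and *Cdkn1a*, an inhibitor of the cell cycle, fell by 0.53 (SE 0.15, adjusted p = 0.0123).

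Astrocyte and microglia marker levels overlapped between the ages while single genes moved. Astrocyte markers had a mean level of 6.30 to 6.65 at P14 and 6.30 to 6.57 at P56. Of 32 astrocyte genes 7 were higher and 6 lower (7 and 9 without the outlying pair), near the 22.2% higher and 21.0% lower among all genes. *Fabp7*, a lipid-binding protein of radial glia and young astrocytes, was at 70.0, 57.2, 60.1, 51.2 and 54.8 CPM at P14 and at 16.3, 10.3, 13.9, 16.3 and 16.7 CPM at P56 (log2 fold change −2.0, SE 0.13, adjusted p = 1.2e-06). *Sparc*, a matrix protein that restrains synapse formation, fell by 1.22, *S100b*, a calcium-binding protein, rose by 0.70 and *Sox9*, a transcription factor of glia, by 0.87. *Gfap* was not called (log2 fold change −0.13, adjusted p = 0.783), with a spread from 24.2 to 92.4 CPM at P14 alone, and was called lower without the outlying pair (−0.66, adjusted p = 0.03).

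Of 32 microglia genes 9 were higher and 4 were lower (8 and 4 without the outlying pair, 13 and 4 with the length trend taken out). The shares over all genes tested were 22.2% higher and 21.0% lower. The mean marker level was 3.90 to 4.35 at P14 and 4.07 to 4.39 at P56. *Igf1*, a growth factor counted in both the microglia and the neuropeptide list, fell by 1.23 (SE 0.11, adjusted p = 8.4e-06). *Lpl*, lipoprotein lipase, fell by 1.12 and *P2ry12*, a receptor for ADP, by 0.45. *Ctss*, a lysosomal protease, rose by 0.79 (SE 0.08, adjusted p = 1.63e-05) and *Trem2*, a lipid receptor, by 0.60. The 24 genes of antigen presentation and complement held 9 higher and none lower (median log2 fold change 0.39). *H2-T23*, a class I molecule of the major histocompatibility complex, was at 2.74, 3.98, 3.41, 2.55 and 3.01 CPM at P14 and at 17.2, 16.4, 21.7, 15.7 and 14.6 CPM at P56 (log2 fold change 2.45, SE 0.14, adjusted p = 4.23e-07). Class I genes are near-identical in part, and the counts hold uniquely mapped reads, so reads shared between copies are left out and the levels are uncertain. *H2-K1* rose by 1.02 and *B2m*, the shared light chain, by 0.51.

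Of 19 interferon-induced genes 7 were higher and 1 was lower (median log2 fold change 0.26). *Ifit3*, an antiviral protein, rose by 1.75 (SE 0.22, adjusted p = 0.000101) from 1.49 to 2.39 CPM to 4.39 to 10.4 CPM. *Ifit1* rose by 1.96 (SE 0.46, adjusted p = 0.00492), with P56 mPFC 4 at 6.04 CPM against 1.06 to 2.35 CPM in the other P56 libraries. *Mx1*, a GTPase against viruses, fell by 0.74.

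Enzymes that write and read DNA methylation change in postnatal neurons, which gain methylation outside CpG sites. Of 34 genes of DNA methylation and chromatin 7 were higher and 5 were lower (median log2 fold change 0.03). Among all genes tested 22.2% were higher and 21.0% lower. The balance turned to 6 higher and 8 lower without the outlying pair, and 8 were higher and 8 lower with the length trend taken out. *Dnmt3a*, the methyltransferase of this period, was at 254, 276, 298, 399 and 312 CPM at P14 and at 76.6, 85.1, 114, 86.4 and 88.7 CPM at P56. The ranges were wide apart (log2 fold change −1.77, SE 0.13, adjusted p = 2.41e-06). The gene's exons sum to 16642 bases, and with the length trend taken out the log2 fold change was −1.97 (adjusted p = 1.83e-07). *Tet1*, an oxidase of methylated cytosine, fell by 1.6 (SE 0.09, adjusted p = 4.25e-07). *Ezh1*, a histone methyltransferase of mature cells, rose by 0.87 (SE 0.06, adjusted p = 1.83e-06).

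Of 29 RNA-binding and splicing regulators 10 were higher and 4 were lower (median log2 fold change 0.25), and 15 were higher without P14 mPFC 4 and P56 mPFC 3. *Igf2bp3*, an mRNA-binding protein of embryonic tissue, was at 0.613, 0.429, 0.708, 0.441 and 0.565 CPM at P14 and at 0.0246 to 0.0859 CPM at P56 (log2 fold change −3.17, SE 0.32, adjusted p = 1.85e-05), and *Igf2bp2* fell by 1.01. *Rbfox3*, the splicing regulator that marks neurons, rose by 0.58. *Lin28b*, which holds back let-7 microRNAs, rose by 1.04 (SE 0.16, adjusted p = 0.000309). Of 16 imprinted growth genes 3 fell, *Magel2* (−1.37), *Nnat* (−1.07) and *Ndn* (−0.82), and 2 rose (4 higher and 4 lower without the outlying pair). The shares over all genes tested were 22.2% higher and 21.0% lower. *Dlk1*, one of the 2 imprinted genes that rose, was at 0.333 CPM or less in every library.

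Of 8 markers of midbrain dopamine neurons 3 were lower and none was higher (4 lower without the outlying pair). *Slc18a2*, the vesicular monoamine transporter, was at 1.14 to 2.39 CPM at P14 and at 0.134 to 0.309 CPM at P56 (log2 fold change −3.06, SE 0.30, adjusted p = 1.75e-05), and *Slc6a3*, the dopamine transporter, fell by 2.55. *Pitx3*, *En1*, *Foxa1*, *Foxa2* and *Lmx1a*, which define these neurons, stayed under the filter on low counts.

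The study's list of 100 genes related to autism spectrum disorder (ASD) held 96 that were tested. Of these 24 were higher, 15 were lower and 57 were not called (median log2 fold change 0.09), beside 22.2% higher and 21.0% lower among all genes. Without P14 mPFC 4 and P56 mPFC 3, 33 were higher and 18 lower, and with the length trend taken out 18 were higher and 22 lower. The balance of higher and lower genes in this list therefore turned with the treatment of length. *Rpe65*, a retinoid isomerase, was at 0.339, 0.282, 0.183, 0.325 and 0.228 CPM at P14 and at 1.5, 1.81, 1.18, 1.24 and 0.950 CPM at P56 (log2 fold change 2.31, SE 0.23, adjusted p = 1.85e-05). *L1cam*, an adhesion molecule of growing axons, fell by 0.81 (SE 0.12, adjusted p = 0.000241) from 228 to 331 CPM to 124 to 177 CPM. *Fgfr2*, a growth factor receptor of oligodendrocytes, rose by 0.69 (adjusted p = 0.0124), and by 0.37 (adjusted p = 0.0104) without P14 mPFC 4 and P56 mPFC 3.

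*Crebbp*, a histone acetyltransferase, rose by 0.64 (adjusted p = 0.044), and *Cacna1f*, a calcium channel, by 1.02 (adjusted p = 0.0234) from at most 0.169 CPM. *Crebbp* was not called with the length trend taken out (0.49, adjusted p = 0.059), and *Cacna1f* was not called without P14 mPFC 4 and P56 mPFC 3 (0.97, adjusted p = 0.0553). Leaving out 1 library ended the call of *Crebbp* in 7 of 10 fits (adjusted p up to 0.0981) and that of *Cacna1f* in 4 of 10 (up to 0.0586). *Mef2c*, a transcription factor that limits synapse number, had a log2 fold change of −0.27 (adjusted p = 0.0517) and was called with the length trend taken out (−0.47, adjusted p = 0.00145) and in 3 of 10 fits that left out 1 library (adjusted p from 0.0165 to 0.0479). *Ube3a*, *Foxp1*, *Cntnap2*, *Rpgrip1l* and *Prss12* had log2 fold changes from 0.02 to 0.16 and were not called. *Rpgrip1l* was called higher without P56 mPFC 3 (0.22, adjusted p = 0.00407) and without the outlying pair (0.24, adjusted p = 0.00294).

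**Figure D5:**
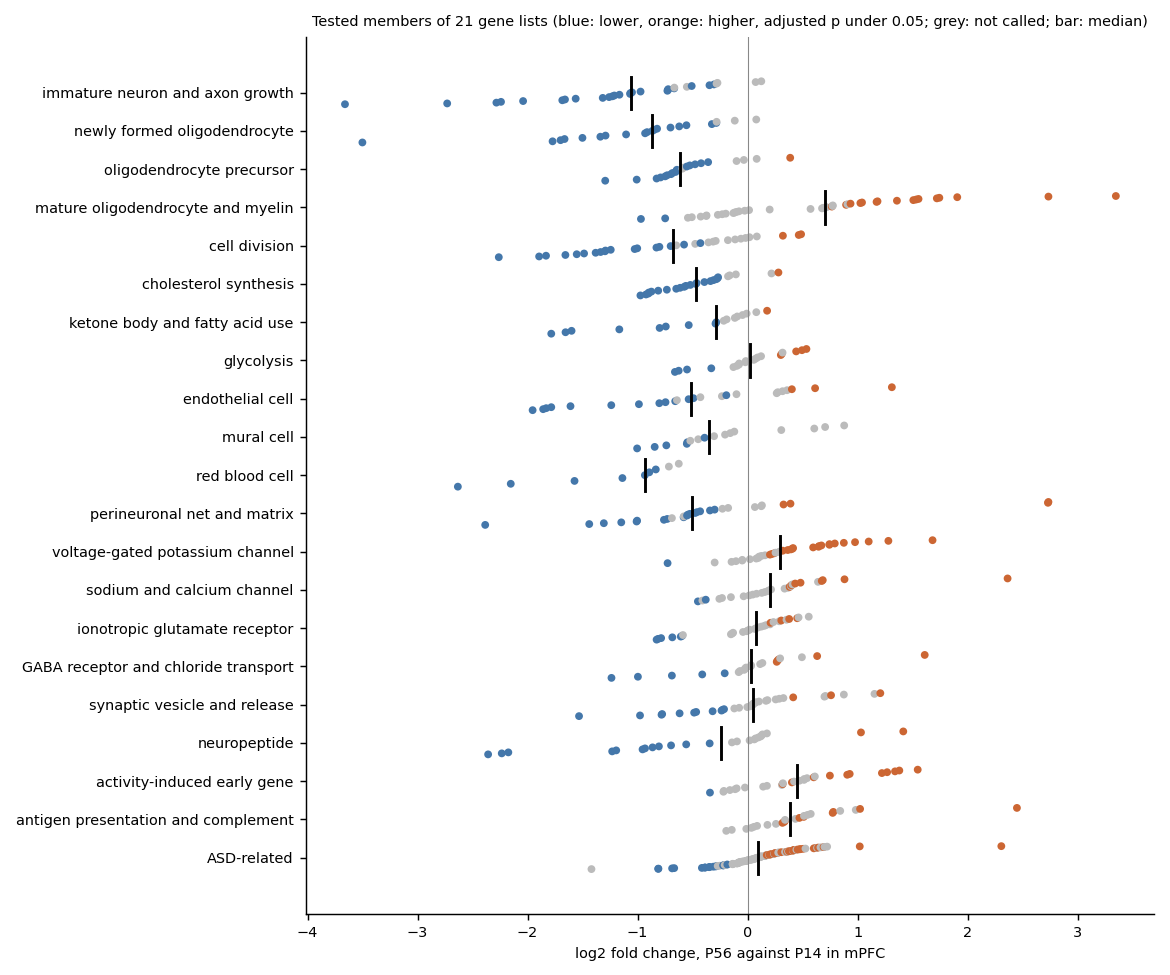
Log2 fold change from P14 to P56 in mPFC of every tested member of 21 gene lists (1 point a gene, sorted within its list), with blue and orange for genes called lower and higher, grey for the rest and a black bar at the list median. The bars lie at −1.06 for immature neurons, −0.87 for newly formed oligodendrocytes and −0.47 for cholesterol synthesis, at 0.29 for potassium channels and at 0.45 for early genes.

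Reads on mitochondrial-encoded genes made up 5.50%, 4.70%, 5.04%, 4.90% and 4.41% of gene reads in P14 mPFC 1 to 5 and 7.27%, 6.72%, 6.04%, 9.065% and 7.60% in P56 mPFC 1 to 5. All P56 libraries were above all P14 libraries, with means of 4.91% ± 0.405 and 7.34% ± 1.13 (SD, n = 5 each) and a difference of 2.43 percentage points. The two-sided exact permutation test gave p = 0.00794, the smallest that 5 against 5 allows. The 16S ribosomal RNA *mt-Rnr2* took 72.7% of these reads and *mt-Co1* 14.7%, and ribosomal RNA was depleted during library preparation, so the share also depends on that step. Of 10 tested protein-coding mitochondrial genes 7 were higher and none was lower (median log2 fold change 0.31), and 3 to 7 were higher when single libraries were left out. Between 0.27 (*mt-Cytb*) and 0.79 (*mt-Nd3*) separated the ages for those called.

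MicroRNAs are cut from hairpins in longer primary transcripts, and their seed, bases 2 to 8, selects targets. Total RNA libraries do not hold the mature RNA of this size, so reads on a hairpin locus measure its primary transcript or an overlapping host. Of 258 microRNA genes tested 48 were called (18.6%, against 43.2% of all genes), 44 higher and 4 lower. With the length trend taken out 13 were higher and 19 lower, so the direction of these short genes as a class turned with the treatment of length. That step lowered hairpin values (*Mir132* from 1.44 to 1.12) but raised short protein-coding genes (*Sst* from 0.12 to 0.28). The trend fitted at hairpin lengths thus ran opposite to the one described above for protein-coding genes. Without the outlying pair 44 were higher and 6 lower. Of the 258, 184 matched a RefSeq hairpin, and 20 of the called ones matched and had 30 reads or more on average. The genes below were chosen from these 20 after their values were seen, for lying within 10 kb of another called hairpin or for being lower at P56. The mature sequences of 5 of their arms follow from RefSeq (GRCm38.p6), with the seed in capitals, since members with 1 seed share targets.
miR-132-3p: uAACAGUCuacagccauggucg
miR-212-3p: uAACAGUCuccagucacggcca
miR-27b-3p: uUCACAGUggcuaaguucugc
miR-24-3p: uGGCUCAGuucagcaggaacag
miR-138-5p: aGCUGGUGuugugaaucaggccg

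*Mir132* and *Mir212* lie side by side on chromosome 11 (75173682 to 75173747 and 75173388 to 75173478, plus strand), and their 3p arms above share the seed AACAGUC. The pair is known as a neuronal microRNA cluster that depends on activity. *Mir132* had 25, 11, 16, 22 and 19 reads at P14 and 35, 48, 77, 39 and 54 reads at P56, so the ranges did not overlap (log2 fold change 1.44, SE 0.30, adjusted p = 0.00262). *Mir212* had 116, 84, 60, 98 and 72 reads at P14 and 75, 244, 244, 134 and 176 reads at P56, with P56 mPFC 1 inside the P14 range (log2 fold change 1.00, SE 0.33, adjusted p = 0.0304). The call of *Mir212* was lost without P14 mPFC 4 and P56 mPFC 3 (adjusted p = 0.0647) and with the length trend taken out (adjusted p = 0.0933), while *Mir132* was called in both (adjusted p = 0.00615 and 0.0137).

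On chromosome 13 *Mir23b*, *Mir27b* and *Mir24-1* lie between 63300484 and 63301275 on the plus strand, and rose by 0.68, 0.60 and 0.87 with adjusted p of 0.00945, 0.00562 and 0.00909. With the length trend taken out their log2 fold changes were 0.36, 0.27 and 0.55, and none was called (adjusted p = 0.0868, 0.081 and 0.0952). *Mir421* and *Mir374b*, neighbours on the X chromosome, rose by 1.38 (SE 0.28, adjusted p = 0.00195) and 1.17 (SE 0.22, adjusted p = 0.00126) and kept their calls in both of these fits. *Mir138-1* (chromosome 9, 122682876 to 122682974, plus strand), whose product acts at dendritic spines, fell by 0.79 (SE 0.19, adjusted p = 0.00605), from 97, 78, 124, 87 and 83 reads to 80, 74, 45, 41 and 33 reads. Its ranges overlapped in reads but not in CPM. *Mir1983* (chromosome 13, 21896918 to 21897049, minus strand) fell by 1.15 (SE 0.25, adjusted p = 0.00315), from 81, 54, 69, 95 and 49 reads to 36, 32, 25, 25 and 39 reads. Both lower hairpins were also called without the outlying pair and with the length trend taken out. At these depths a few reads separate the groups, and a change of host gene cannot be told from one of the microRNA.

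The second table counts contigs that the authors assembled as antisense transcripts. Of 32002 contigs tested 13018 were called (40.7%). All 31101 contigs that lie on annotated genes are annotated on the strand opposite to the gene. For 5 abundant contigs that span their gene, chosen after their values were seen, the count in the 10 mPFC libraries differed by at most 0.41% from that of the gene on its own strand. For *Rpph1*, the ribonuclease P RNA, 4615301 reads were counted as a gene and 4615302 as a contig in the 10 mPFC libraries, *Kif5a*, a kinesin, 1727304 and 1727016, and *mt-Cytb* 1230124 and 1230696. Over 9597 contigs that lie wholly in exons, reads per base were 1.58 times those of the gene at the median and 0.651 to 4 times from the 5th to the 95th percentile. Of 12228 called contigs whose gene was also tested, 98.8% had the sign of the gene. Contig counts are therefore given here as a measure that cannot be told apart from sense reads, and no antisense change is read from them. The contig with the largest fall lay in exons of *Cd24a* (chromosome 10, 43583220 to 43583588; log2 fold change −3.85, against −3.66 of the gene) and that with the largest rise on *Hsf4* (3.71 against 3.57).

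Contigs took 35.2% ± 0.593 of all counted reads at P14 and 35.4% ± 0.243 at P56 (SD, n = 5 each; difference 0.179 percentage points, two-sided exact permutation test, p = 0.683). The ratio of contig to gene reads was called for 366 of 10932 genes (3.35%), and for 232 without P14 mPFC 4 and P56 mPFC 3. The ratio fell most for *Gm16432* (−1.89 on the log2 scale) and *Ttll3* (−1.23), a tubulin glycylase, and rose most for *Apool* (1.56), a mitochondrial inner membrane protein.

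Whether a change in mPFC differed from that in striatum was tested as an interaction over 20 libraries. Of 19617 genes 871 were called (4.44%). With the mouse as a block, since both punches of a number came from 1 mouse, 299 were called, 277 of them in both fits. P14 striatum 1 and 4 had mean levels of ependyma and choroid plexus markers of 4.75 and 4.19, where the other P14 striatum punches had 0.75 to 2.09. Without these 2 mice 87 genes were called. *Trpa1* fell by 4.91 in mPFC, where its P14 level was 5.53 CPM, and its log2 fold change in striatum, where that level was 0.497 CPM, was −1.91 (interaction −3.03, adjusted p = 0.00637, 0.0284 with the block and 0.0996 without the 2 mice). *Sec14l3*, a lipid transfer protein, fell in mPFC from 1.57 to 0.515 CPM and went from 1.05 to 3.92 CPM in striatum (interaction −3.51, adjusted p = 0.00238, 0.00161 with the block and 0.0327 without the 2 mice). *Plk5* rose by 3.63 in mPFC, with 1.29 in striatum (interaction 2.31, adjusted p = 0.00637, 0.0403 with the block and 0.0308 without the 2 mice), and *H2-T23* rose by 2.45, with 1.21 in striatum (interaction 1.21, adjusted p = 0.0035, 0.00769 with the block and 0.0654 without the 2 mice). The calls of *Trpa1* and *H2-T23* were thus lost without these mice.

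*Slc17a8* fell by 1.53 in mPFC, with 0.37 in striatum (interaction −1.93, adjusted p = 0.00714, 0.019 with the block and 0.0445 without the 2 mice). *Amdhd1*, an enzyme of histidine breakdown, and *Dmrt2*, a transcription factor, fell by 2.7 and 1.16 in mPFC and averaged 0.0967 and 0.0586 CPM in P14 striatum. In P56 striatum they averaged 0.0972 and 0.299 CPM, with log2 fold changes in striatum of 0.03 and 2.39. Their interactions (−2.78 and −3.60) had adjusted p of 0.034 and 0.0121, 0.14 and 0.0643 with the block, and 0.169 and 0.125 without the 2 mice. Cortical excitatory neuron markers had mean levels of up to 5.78 in P56 striatum and up to 4.76 in P14 striatum. The part of that in these values was not tested. The positive interactions of *Ttr* (13.86), *Mfrp* (6.66) and *Folr1* (6.35), genes of choroid plexus and its epithelium, rested on P14 striatum 1 and 4. *Ttr* had 4427 and 3508 CPM in P14 striatum 1 and 4 and at most 4.18 CPM in any mPFC library, and its adjusted p was 0.187 without these mice.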

How the data were processed

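RNA from single punches was sequenced by the authors as stranded, rRNA-depleted total RNA with 50-base reads, and their processing notes name CASAVA 1.8.4, FastQC 0.11.5 and STAR, with the GRCm38 build. The authors deposited raw read counts for genes and for antisense contigs assembled with Trinity. Counting by strand decides what the contig counts hold, and the tables were not normalized before deposit.

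A gene or contig was tested if 3 or more of the 10 libraries held 10 reads or more of it, with edgeR 4.0.16 (TMM, quasi-likelihood F test, two-sided, Benjamini-Hochberg, called under 0.05) in R 4.3.3. The contig-to-gene ratio was tested with limma 3.58.1 after adding 0.5 reads, shares with an exact permutation test, and DESeq2 1.42.0 was an alternative. Scripts were tested on simulated data. Named genes were the 10 largest called, non-overlapping protein-coding changes in each direction with 100 reads or more on average, leading called members of each list, and genes the study names; some of these are not reported here. Members and lists were chosen with earlier results of these data known. Sex came from the study's supplement. Depth was 81878718 to 116702588 gene reads per library. Each SE is the uncertainty of a fitted fold change, drawn from the spread between libraries.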

Additional observations from a re-analysis of the deposited data

Results flagged for a closer look

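In 57 of 390 groups of 5 libraries, 1 library lay so far from its neighbours that the gap exceeded 0.71 of the range. Chance marks about 1 in 20 groups, or 5%. P14 mPFC 4 accounted for 20 of the 57 and P56 mPFC 3 for 26. Levels of lists are means of log2(CPM + 0.5).

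P14 mPFC 1 was the highest library of its age, apart from the other 4, for *Acat1* (202.1 CPM).

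P14 mPFC 2 was the lowest library of its age, apart from the other 4, for the share of counted reads on contigs (34.18%).

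P14 mPFC 3 was the highest library of its age, apart from the other 4, for *Gabrq* (4.661 CPM) and *Adra2c* (9.939 CPM).

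P14 mPFC 3 was the lowest library of its age, apart from the other 4, for *Snap25* (1287 CPM).

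P14 mPFC 4 was the highest library of its age, apart from the other 4, for *Dcx* (72.51 CPM), *Ephb2* (65.26 CPM), *Kcnc1* (59.75 CPM), *Kcna2* (281.6 CPM), *Scn8a* (395.7 CPM), *Cacna1c* (112.7 CPM), *Slc12a5* (347.9 CPM), *Grin2a* (507.3 CPM), *Grin2b* (1401 CPM), *Gria3* (337.8 CPM), *Bsn* (475.8 CPM), *Pclo* (508.9 CPM), *Syn1* (192.6 CPM), *Fosb* (4.268 CPM), *Rbfox3* (82.67 CPM), *Dlk1* (0.116 CPM), *Crebbp* (122.2 CPM) and *Foxp1* (122.2 CPM).

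P14 mPFC 4 was the lowest library of its age, apart from the other 4, for *Slc16a1* (115.1 CPM) and *Kcnj8* (2.401 CPM).

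P14 mPFC 5 was the highest library of its age, apart from the other 4, for *Glra2* (111 CPM).

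P14 mPFC 5 was the lowest library of its age, apart from the other 4, for *Kcnh4* (0.6632 CPM), *Sox9* (2.87 CPM) and the interneuron level (5.006).

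P56 mPFC 3 was the highest library of its age, apart from the other 4, for *Mkrn3* (1.651 CPM), *Casr* (1.005 CPM), *Serpinb1a* (9.877 CPM), *Igfn1* (21.92 CPM), *Hapln2* (17.73 CPM), *Cdk1* (0.9128 CPM), *Top2a* (9.179 CPM), *Mki67* (8.964 CPM), *Enpp6* (16.18 CPM), *Aspa* (32.16 CPM), *Il33* (46.86 CPM), *Trf* (18.77 CPM), *Mbp* (2481 CPM), *Mog* (90.02 CPM), *Ugt8a* (129.8 CPM), *Kcnh4* (9.979 CPM), *Hcn2* (64.18 CPM), *Slc12a2* (140.6 CPM), *Penk* (75.03 CPM), *Rspo1* (5.497 CPM), *Vcan* (33.18 CPM), *Igf2bp2* (0.8513 CPM), *Fgfr2* (75.24 CPM), the oligodendrocyte precursor level (4.546) and the medium spiny neuron level (4.785).

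P56 mPFC 3 was the lowest library of its age, apart from the other 4, for *Rpph1* (3669 CPM).

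P56 mPFC 4 was the highest library of its age, apart from the other 4, for *Ifit1* (6.037 CPM).

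P56 mPFC 4 was the lowest library of its age, apart from the other 4, for *Gad1* (221 CPM).

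For 27 named genes the change with age differed between mPFC and striatum by the interaction test of edgeR (adjusted p under 0.05). The interaction, on the log2 scale and as mPFC minus striatum, was below 0 for *Trpa1* (−3.03), *Mkrn3* (−1.57), *Tubb2b* (−0.64), *Gap43* (−0.92), *Oxct1* (−0.44), *Neto2* (−1.08), *Slc17a8* (−1.93), *Cartpt* (−2.37), *Rpe65* (−1.44), *Dmrt2* (−3.60), *Ovol2* (−3.58), *Sec14l3* (−3.51) and *Amdhd1* (−2.78). It was above 0 for *Plk5* (2.31), *Sema6a* (1.21), *Ccnd1* (0.94), *Pdgfra* (0.69), *Gpr17* (0.94), *Neu4* (0.81), *Fabp7* (1.00), *Sox9* (1.33), *H2-T23* (1.21), *Ttr* (13.86), *Mfrp* (6.66), *Folr1* (6.35), *Lrrc74b* (5.49) and *Odf3b* (4.26). With the mouse as a block 10 of the 27 were called, and without the mice of P14 striatum 1 and 4 the 4 called were *Mkrn3*, *Plk5*, *Slc17a8* and *Sec14l3*.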

How the results depend on the processing

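Of 178 named genes, 156 kept their direction and side of the threshold in all 20 alternatives, and 1 value reversed: *Ube3a* went from 0.05 to −0.19 (adjusted p = 0.0304) with the length trend of each library removed, an alternative chosen after seeing the data. Many named genes were picked from these same data for large called changes, so their stability says little about the other called genes. The count of genes with a 2-fold change was 733 with at least 1 CPM in at least 5 samples, against 1544, and 1359 to 1943 when single libraries were left out. The count of called genes ran from 6985 to 8869 when single libraries were left out. The ratio count was 366, with 232 without P14 mPFC 4 and P56 mPFC 3, and 220 to 383 without single libraries. The interaction count was 871, with 543 without a filter, 1995 by DESeq2, 87 without the mice of P14 striatum 1 and 4 (also chosen after seeing the data), and 269 to 2061 without single mice. The contig share difference of 0.179 percentage points became −0.0771 without P14 mPFC replicate 2, and ran to 0.2917 when other libraries were left out. The causes were not tested.

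P14 and P56 mice were different animals, and same-numbered libraries deviated together in 3 of 5 pairs (correlation over 0.1), with 3 of 5 best matched by their own number. That is a hint of shared structure from the data, not from the design, and since the other pairs lay under 0.1 the numbers were not taken as pairing. With a replicate block 8651 genes, 14367 contigs and 209 ratios were called, and the block on the mouse gave 299 interactions.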
